A study of Mus musculus with 18 samples.

Results

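The comparison described here sets bone marrow of mice that overexpress the T allele of CCAT2 against bone marrow of wild-type (WT) mice, gene by gene. It uses 8 of the 18 arrays of the series, 4 from CCAT2-T mice and 4 from WT mice, chosen by the genotype in their titles, and 14505 genes of the 18194 that the array annotation names. The CCAT2-T mice were C57Bl6 animals engineered to carry and overexpress the human transcript throughout the body, and the labels give them a DRAI status of DRAI-. The WT mice were of the same strain, and their DRAI status is given as NA. Each array held total RNA of the flash-frozen marrow cells of 1 mouse, and the titles call the 4 samples of a group biological replicates. The promoter that drives the transgene, the number of founder lines, and the age and sex of the mice are not given in the labels used here. The other arrays, 4 from CCAT2-G mice (DRAI-) and 6 from CCAT2-GT mice (DRAI+), entered the estimate of the spread between mice, and the CCAT2-G mice served for a second comparison of the alleles.

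CCAT2 is a human long noncoding RNA transcribed from a gene desert that also holds enhancers acting on MYC, and the T and G alleles are the versions of a single-base polymorphism inside the transcript. It is known as a regulator of MYC, of WNT target genes and of chromosomal stability in colon cancer cells. Bone marrow is a mixture in which granulocytes, red cell precursors and developing B cells prevail and megakaryocytes, the cells that shed platelets, are rare, so a level in whole marrow follows both the number of cells of a type and the RNA in each. These cannot be told apart in bulk samples.

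Most markers of marrow lineages were bright. S100a8, Ltf and Mpo of the neutrophil series, Slc4a1 and Klf1 of red cell precursors, Cd79b and Ms4a1 of B cells and Pf4 of megakaryocytes stood between the 90.2 and the 99.98 percentile of all genes on the array. Other markers of the same lineages stood lower, with Itga2b and Gp9 of megakaryocytes at the 82.8 and 80.7, Cd79a of B cells at the 75.8, Cd34 of progenitors at the 67.5, Cd3e of T cells at the 66.8 and Ncr1 of NK cells at the 49.0 percentile. Among transcripts of other organs, Alb of hepatocytes stood at the 29.0, Krt5 of epidermis at the 43.0 and Ins2 of pancreatic islets at the 53.1 percentile, the last above Ncr1. The probeset of the alpha-globin gene Hba-a1 was too dim to be tested, at the 16.8 percentile, and Col1a1 of bone stood at the 25.8. No probeset was annotated to CCAT2, so the transgene could not be checked against the labels. The arrays fell into a set of narrow spread, with an interquartile range of log2 values under 3.1, and a set of wide spread. Replicates 1 and 2 of both groups were narrow, and replicates 3 and 4 of both groups were wide, so the sets are balanced in number. Within each set the CCAT2-T arrays were still the narrower ones. Their interquartile ranges were 2.90 and 2.98, against 3.03 and 3.07 in WT, among narrow arrays. Among wide arrays they were 3.22 and 3.29, against 3.36 and 3.35 in WT. Array spread and genotype therefore cannot be told apart within a set. CCAT2-T replicate 3 was the only one of the 8 mice with Xist, the transcript of the inactive X chromosome, at a high level (12.02, against 3.68 to 4.05 in the other 7), and the only one with the Y-linked Eif2s3y at a low level (2.14, against 6.96 to 7.93). WT replicate 4 had the highest mean level of stromal, bone and endothelial genes (6.78, against 4.58 to 5.87 in the other 7). For many of the results that rest on these mice, values without one or both of them stand beside the values over all 8; not every gene is given both ways.

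No gene passed the test. A limma fit on the log2 values of 14505 genes gave 0 genes at an adjusted p under 0.05 (0% of those tested), and the smallest adjusted p was 0.928. At an unadjusted p under 0.05 there were 451 genes (3.11%), 247 higher (1.7%) and 204 lower (1.41%) in CCAT2-T marrow. The share of 3.11% is below the limit of 0.05, the share expected with no difference between the groups. The replicate number was fitted as a block on the 8 CCAT2-T and WT arrays alone. In that limma fit the count past the threshold was again 0, with a smallest adjusted p of 0.516. At an unadjusted p under 0.05 it gave 1386 genes (9.56%), 494 higher (3.41%) and 892 lower (6.15%). Without the block the same arrays gave 119 higher and 220 lower. In simulated data with the same groups the fit recovered 98.5% of genes changed by 2 log2 units. It recovered 76.1% of those changed by 1 and 25.4% of those changed by 0.5. The simulated noise was independent between genes and arrays, with no outlying mouse and no array sets. These shares therefore need not hold for genes that vary widely between the real mice. Differences of single genes were small: the median over all genes was 0.0019, with quartiles at -0.13 and 0.12, and 39 genes differed by 1 log2 unit or more, 4 higher and 35 lower. Without WT replicate 4 the unadjusted counts were 90 higher and 39 lower, and without CCAT2-T replicate 3 they were 302 higher and 48 lower.

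The level of the genes differed with direction. Those higher at an unadjusted p under 0.05 were mostly dim, with a median level of 4.30 and an upper quartile of 5.25. Those lower had a median of 6.76 and a lower quartile of 5.93, and all genes tested had a median of 6.03. The CCAT2-T arrays were also the narrower ones within each array set. The part of array spread in these directions was not tested. The plot of leading genes by mouse shows the 6 higher and 6 lower genes described next. Add1 encodes alpha-adducin, which caps actin filaments and joins them to spectrin in the membrane skeleton of red cells and other cells. It measured 9.43, 9.63, 10.06 and 9.81 in CCAT2-T replicates 1 to 4, against 8.98, 9.05, 9.20 and 9.00 in WT replicates 1 to 4. The groups did not overlap. The difference was 0.67 log2 units (SE 0.16, limma adjusted p 0.928), it was 0.51 within the narrow and 0.83 within the wide arrays, and the other probesets of Add1 differed by 0.25 and 0.30 in the same direction. Add1 was also the gene closest to the threshold when the same CCAT2-T mice were set against CCAT2-G mice. CCAT2-T exceeded CCAT2-G by 1.04 (SE 0.16, limma adjusted p 0.0579), with CCAT2-G mice between 8.44 and 8.90. The CCAT2-G mean of 8.69 lay below the WT mean of 9.06. As the CCAT2-T mice are shared, the contrast with CCAT2-G is no second measurement of them. Over all genes that contrast gave 0 at an adjusted p under 0.05, and at an unadjusted p under 0.05 it gave 301 higher (2.08%) and 611 lower (4.21%).

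**Figure D1:**
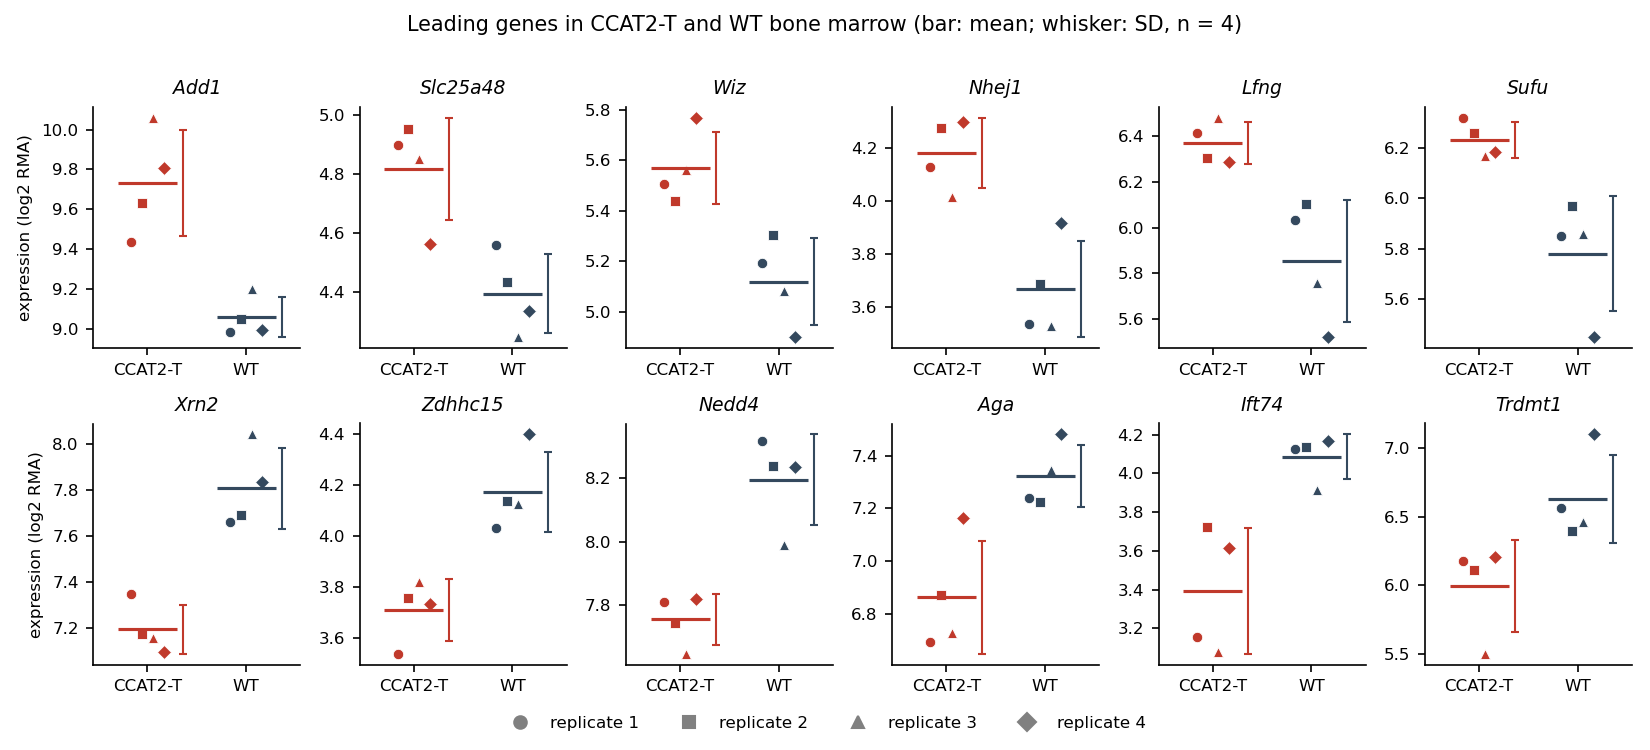
Expression (log2 RMA value, vertical axes of different range) of 12 genes in each of the 4 CCAT2-T (red) and 4 WT (dark) mice, with symbols for replicates 1 to 4, bars for group means and whiskers for SD. The 4 CCAT2-T mice lie above the 4 WT mice in the upper row and below them in the lower row, with no overlap; no gene passed the test.

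Several other genes were higher in every CCAT2-T mouse than in any WT mouse, as 123 of the 14505 genes were (0.848%). With so few mice such a separation also arises by chance, and the genes named here were picked for it or for a small p. Wiz, a zinc finger partner of the G9a and GLP histone methyltransferases, measured 5.51, 5.44, 5.56 and 5.77 in CCAT2-T mice, against 5.19, 5.30, 5.08 and 4.90 in WT mice. Nhej1, the XLF factor of DNA end joining, was dim and measured 4.13, 4.28, 4.02 and 4.30 in CCAT2-T mice, against 3.53, 3.68, 3.53 and 3.92 in WT mice. Their differences were 0.45 (SE 0.12) for Wiz and 0.51 (SE 0.14) for Nhej1, and the mitochondrial carrier family member Slc25a48 differed by 0.42 (SE 0.11). Their other probesets were dimmer and differed less, by 0.03 for Wiz, 0.19 for Nhej1, and 0.27 and 0.08 for Slc25a48. Averaged over probesets the differences were 0.24 for Wiz, 0.35 for Nhej1 and 0.26 for Slc25a48. Lfng, a glycosyltransferase that modifies Notch receptors, measured 6.41, 6.30, 6.48 and 6.29 in CCAT2-T mice, against 6.03, 6.11, 5.76 and 5.52 in WT mice. Lfng differed by 0.52 (SE 0.21), and by 0.30 as the mean over its probesets. Dtx2, a ubiquitin ligase of the Deltex family in the same pathway, differed by 0.43 (SE 0.18), and Sufu, an inhibitor of hedgehog signalling, by 0.45 (SE 0.16), although only 1 of the 2 other Sufu probesets was higher. Cd7, a surface protein of T and NK cells, differed by 0.53 (SE 0.30), Hdac9, a class II histone deacetylase, by 0.51 (SE 0.32), and Syt11, a synaptotagmin of vesicle membranes, by 0.49 (SE 0.15). Within the narrow arrays Cd7 differed by 0.14 and Hdac9 by 0.12, against 0.92 and 0.89 within the wide arrays. The other Hdac9 probeset differed by 0.0082, the 4 other Syt11 probesets differed by -0.04 to 0.14, and the mean over probesets was 0.26 for Hdac9 and 0.13 for Syt11. Tyw1, an enzyme of wybutosine synthesis in transfer RNA, differed by 0.33 (SE 0.10) at its brightest probeset, and by -0.06 when its probesets were averaged.

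Genes lower in every CCAT2-T mouse numbered 122 (0.841%), and those named were picked in the same way. Xrn2, the nuclear exoribonuclease that acts in transcription termination, had the smallest p of all genes. It measured 7.35, 7.18, 7.16 and 7.10 in CCAT2-T mice, against 7.66, 7.69, 8.04 and 7.84 in WT mice, a difference of -0.61 (SE 0.14). Both other Xrn2 probesets were lower as well, but by less (-0.31 and -0.13). Nedd4, a HECT-domain ubiquitin ligase, measured 7.81, 7.74, 7.65 and 7.82 in CCAT2-T mice, against 8.32, 8.24, 7.99 and 8.24 in WT mice. Its difference was -0.44 (SE 0.12), and both other probesets were lower. Ift74, a component of the intraflagellar transport complex of cilia, was dim and measured 3.15, 3.72, 3.08 and 3.61 in CCAT2-T mice, against 4.13, 4.14, 3.92 and 4.17 in WT mice. Trdmt1, the methyltransferase also called Dnmt2 that acts on transfer RNA, measured 6.17, 6.11, 5.50 and 6.20 in CCAT2-T mice, against 6.56, 6.40, 6.46 and 7.10 in WT mice. The differences were -0.69 (SE 0.21) for Ift74 and -0.63 (SE 0.20) for Trdmt1, whose other probeset differed by -0.02. Zdhhc15, a palmitoyltransferase, and Aga, a lysosomal glycosylasparaginase, were each lower by a difference of -0.46. Zdhhc15 was dim, at a mean level of 3.90 over all arrays. The other Zdhhc15 probeset differed by -0.01, and the mean over its probesets by -0.24. Cpsf2, a subunit of the cleavage and polyadenylation factor, differed by -0.42 with 1 of its 2 other probesets in the same direction. Against CCAT2-G mice the CCAT2-T differences were -0.46 (SE 0.14) for Xrn2, -0.40 (SE 0.12) for Nedd4, -0.77 (SE 0.21) for Ift74 and -0.58 (SE 0.20) for Trdmt1, each with a limma adjusted p of 0.743. Both contrasts use the same 4 CCAT2-T mice, so these values are no second measurement of them.

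The set of genes that stood lowest as a whole was that of megakaryocytes and platelets. Of its 28 entries 25 were measured, 24 were lower and 1 higher in CCAT2-T marrow, where 49.5% of all genes tested were lower. The median difference was -0.79, beside 0.0019 for all genes, and it was -0.21 within the narrow and -1.36 within the wide arrays. No member reached an unadjusted p under 0.05 in the limma fit of all 18 arrays without a block. With the replicate block, on the 8 CCAT2-T and WT arrays, 17 of the 25 did so. All 17 were lower, against 6.15% of all genes, at an adjusted p of no less than 0.516. In same-numbered pairs of mice, which the labels do not link, 14 members were lower in all 4 pairs, against 11.6% of all genes.

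The member with the largest difference was Ppbp. It encodes the precursor of the platelet chemokines such as NAP-2, and it measured 9.75, 9.81, 6.55 and 8.99 in CCAT2-T replicates 1 to 4, against 10.30, 10.55, 9.78 and 11.94 in WT replicates 1 to 4. Pf4, platelet factor 4 of the alpha granule, measured 9.53, 9.41, 8.16 and 8.82 in CCAT2-T mice, against 9.76, 10.12, 9.41 and 11.37 in WT mice. Both were lower in each of the 4 numbered pairs, and for both the groups overlapped. The differences were -1.87 (SE 1.00) for Ppbp and -1.19 (SE 0.76) for Pf4. Thbs1, thrombospondin 1, measured 7.11, 6.95, 7.05 and 7.20 in CCAT2-T mice, against 7.36, 7.45, 8.93 and 9.06 in WT mice, without overlap (-1.12, SE 0.64). Vwf, the adhesive protein von Willebrand factor that endothelium also makes, measured 5.86, 5.54, 4.81 and 5.55 in CCAT2-T mice, against 6.11, 6.23, 6.12 and 7.70 in WT mice, again without overlap (-1.10, SE 0.88). Without CCAT2-T replicate 3 and WT replicate 4, the 2 extreme mice, the differences were -0.70 for Ppbp, -0.51 for Pf4 and -0.50 for Vwf.

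Receptors and adhesion proteins of the platelet surface were lower as well. Gp5, a subunit of the receptor for von Willebrand factor, measured 6.03, 5.89, 5.04 and 5.91 in CCAT2-T mice, against 6.43, 6.40, 6.31 and 8.12 in WT mice. Selp, P-selectin of the alpha granule membrane and of endothelium, measured 5.89, 5.66, 5.77 and 5.34 in CCAT2-T mice, against 5.98, 6.04, 6.37 and 7.44 in WT mice. Neither gene overlapped between the groups, and the differences were -1.10 (SE 0.80) for Gp5 and -0.80 (SE 0.61) for Selp, and -0.44 and -0.51 without both extreme mice. The other subunits Gp1bb and Gp9 differed by -1.38 (SE 0.95) and -0.79 (SE 0.69), but the other, dimmer Gp1bb probeset differed by 0.16. The podoplanin receptor Clec1b differed by -1.31 (SE 0.97) and the ADP receptor P2ry12 by -0.71 (SE 0.61). The integrin chains Itgb3 and Itga2b differed by -0.70 (SE 0.74) and -0.56 (SE 0.67). Plek, pleckstrin, a substrate of protein kinase C in platelets, was the fifth member without overlap, at a difference of -0.46 (SE 0.39). These 5 of 25 members stood against 0.841% of all genes lower without overlap. Transcription factors of the lineage differed less: Fli1 differed by -0.28 (SE 0.20) and Zfpm1, known as Fog1, by -0.02 (SE 0.21), and outside the set Gata1, which red cell precursors share, differed by -0.13 (SE 0.22). Nbeal2, needed for alpha granules, was the member that was higher, by 0.28 (SE 0.36).

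The size of the platelet gene difference depended on the mice at both ends. The mean level over the 25 members was 7.02, 6.91, 6.14 and 6.70 in CCAT2-T replicates 1 to 4, against 7.16, 7.23, 7.08 and 8.41 in WT replicates 1 to 4. The groups did not overlap, CCAT2-T replicate 3 was the lowest and WT replicate 4 the highest. Leaving out WT replicate 4 gave a median difference of -0.39 and leaving out CCAT2-T replicate 3 gave -0.57. Without both mice 24 of the 25 were lower, with a median of -0.21. WT replicate 4 was also the mouse rich in stromal transcripts, and with the stromal level as a covariate the median was -0.13. With Xist minus the mean of the Y-linked genes as a covariate it was -0.41. Set against CCAT2-G mice, the median difference of CCAT2-T mice was -0.99, and Ppbp differed by -2.25 (SE 1.00, limma adjusted p 0.779). The heat map of megakaryocyte genes shows the values behind these medians.

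**Figure D2:**
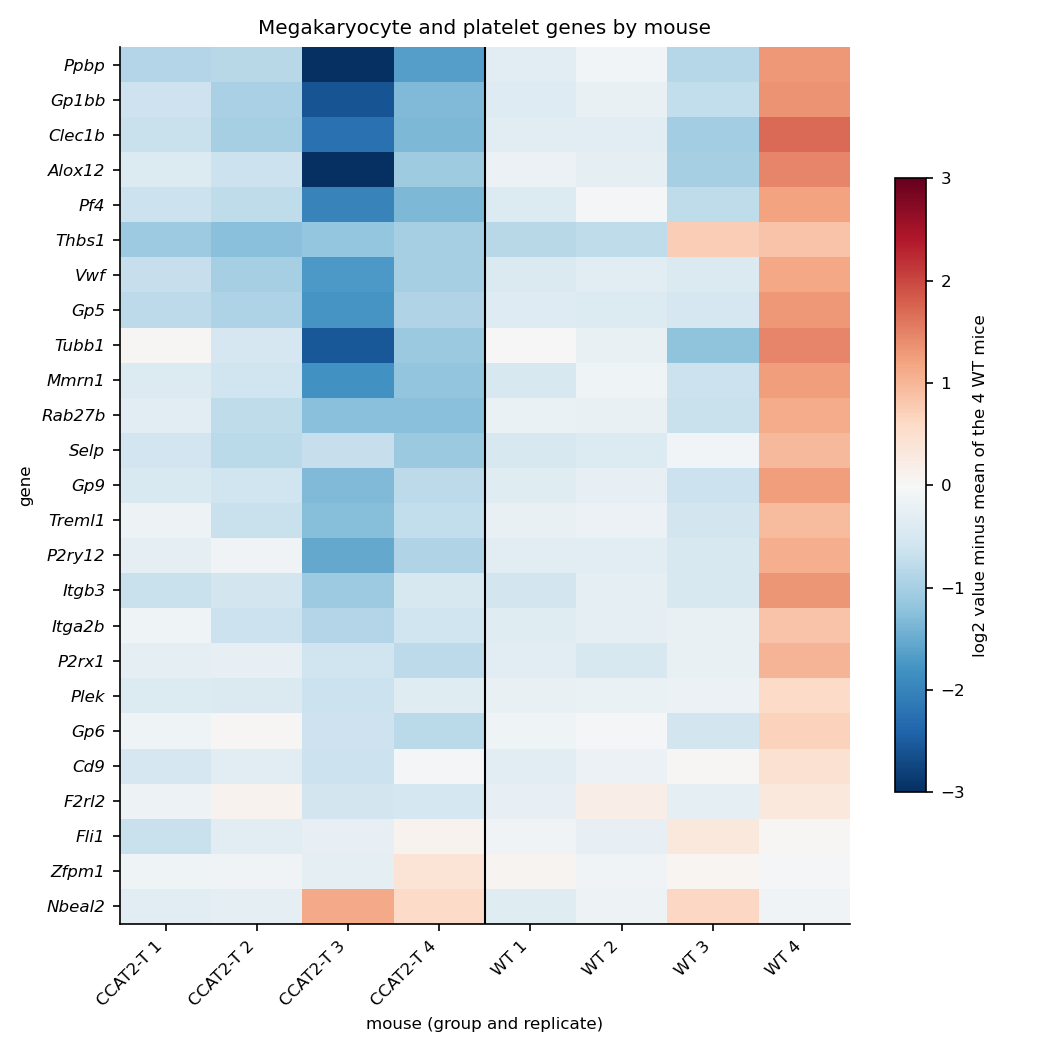
Log2 value of 25 megakaryocyte and platelet genes (rows) in each CCAT2-T and WT mouse (columns) minus the mean of the 4 WT mice, with blue for lower and red for higher; values beyond 3 take the end colour of the scale. CCAT2-T replicate 3 is the lowest mouse for most genes and WT replicate 4 the highest, and 24 of 25 genes had a lower mean in CCAT2-T mice.

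Promoters of platelet genes are known to carry sites for GATA1 and for Ets factors such as Fli1. The promoters of Gp5, Selp and Pf4 are shown because these genes were lower in all 4 pairs and hold such letters. RefSeq promoters (GRCm38.p6, 250 bases before to 50 after the start of the gene, 5′ to 3′ along the gene) were searched on both strands for the GATA1 motif AGATAA and for the Ets motif AGGAAG, and matches stand in capitals, so that TTATCT and CTTCCT mark matches on the other strand. Gp5 lies at chr16:30310732-30311031 on the minus strand, Selp at chr1:164115014-164115313 on the plus strand and Pf4 at chr5:90772185-90772484 on the plus strand.
Gp5: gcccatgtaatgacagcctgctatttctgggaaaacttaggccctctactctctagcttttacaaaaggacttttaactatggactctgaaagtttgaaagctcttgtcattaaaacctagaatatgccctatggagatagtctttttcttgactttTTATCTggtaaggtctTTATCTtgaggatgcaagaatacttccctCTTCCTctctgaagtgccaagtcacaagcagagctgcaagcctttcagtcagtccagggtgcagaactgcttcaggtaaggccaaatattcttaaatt
Selp: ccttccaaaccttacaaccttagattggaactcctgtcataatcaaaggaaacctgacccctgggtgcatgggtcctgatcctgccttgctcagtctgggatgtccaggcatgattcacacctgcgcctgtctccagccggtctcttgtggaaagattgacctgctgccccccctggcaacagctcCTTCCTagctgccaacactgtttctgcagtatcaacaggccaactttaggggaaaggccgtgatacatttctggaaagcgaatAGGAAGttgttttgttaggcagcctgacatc
Pf4: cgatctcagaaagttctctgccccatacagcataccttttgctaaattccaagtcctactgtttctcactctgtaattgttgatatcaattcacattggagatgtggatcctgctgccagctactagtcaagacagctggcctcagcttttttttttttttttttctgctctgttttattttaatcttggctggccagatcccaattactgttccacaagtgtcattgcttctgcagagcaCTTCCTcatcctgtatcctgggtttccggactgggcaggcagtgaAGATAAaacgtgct
Gp5 held 2 GATA matches and 1 Ets match, Selp 2 Ets matches and Pf4 1 of each, while the windows of Ppbp and Plek held none of either. Over the 20 members with a promoter in the table, 6 held AGATAA (30%) and 11 held AGGAAG (55%), compared with 11.2% and 35.4% of 32851 promoters of the same length. A match of letters is not a measured binding site.

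Eosinophil granule transcripts had the largest differences after Ppbp among the genes named here that were lower. Prg2, the major basic protein of eosinophil granules, measured 8.24, 9.02, 5.63 and 7.08 in CCAT2-T replicates 1 to 4, against 9.03, 8.40, 8.36 and 11.44 in WT replicates 1 to 4. Epx, eosinophil peroxidase, measured 5.85, 6.55, 3.42 and 4.88 in CCAT2-T mice, against 6.57, 5.81, 5.49 and 9.04 in WT mice. WT replicate 4 was again the highest and CCAT2-T replicate 3 the lowest. The differences were -1.81 (SE 1.20) and -1.55 (SE 1.20), but within the narrow arrays they were -0.09 and 0.01, and without both extreme mice -0.48 and -0.20. Some basophil and mast cell transcripts of the same set did not share this: Mcpt8, a basophil protease, differed by -0.04 (SE 0.54) and Cpa3, a mast cell carboxypeptidase, by -0.08 (SE 0.38). The mast cell tryptase Tpsb2, the member of smallest p, was dim and higher by 0.30 (SE 0.14). It differed by 0.04 within the narrow and 0.57 within the wide arrays, and its other probeset by -0.13. Of the 21 measured genes of eosinophils, basophils and mast cells, 13 were lower and 8 higher, with a median of -0.08.

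Genes of stroma, bone and endothelium, which form the niche of the marrow, were lower for 24 of 30 with a median of -0.46. Lepr and Kitl, the leptin receptor and the stem cell factor of perivascular stromal cells, differed by -1.499 (SE 1.10) and -1.42 (SE 1.00). Without both extreme mice they differed by -0.09 and -0.19. Lepr measured 5.54, 5.00, 2.58 and 3.83 in CCAT2-T mice, against 5.98, 4.80, 3.85 and 8.32 in WT mice, so that 1 WT mouse stood far above the other 7. The median was 0.06 within the narrow arrays, -0.09 without WT replicate 4, and 0.02 without it and CCAT2-T replicate 3. Skeletal muscle genes, a sign of tissue carried along with the marrow, had a mean level of 6.09, 4.96, 4.64 and 4.62 in CCAT2-T mice, against 4.89, 4.81, 4.59 and 6.10 in WT mice, with 1 high mouse in each group.

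Monocyte and macrophage genes were lower for 26 of 31, with a median of -0.22 (-0.21 within the narrow and -0.17 within the wide arrays). Cd68, a lysosomal protein of macrophages, measured 7.45, 7.60, 6.83 and 7.68 in CCAT2-T mice, against 7.66, 7.90, 7.50 and 8.90 in WT mice (-0.60, and -0.11 without both extreme mice). Of the 31, 0 were lower without overlap, against 0.841% of all genes. Outside the set, Adgre4, an adhesion receptor of macrophages, did not overlap between groups, with 6.55, 6.46, 6.95 and 6.76 in CCAT2-T mice, against 6.99, 7.35, 7.16 and 7.95 in WT mice (-0.68, SE 0.33). The growth factor receptor Csf1r, by contrast, differed by -0.05 (SE 0.24) and overlapped, and turned to 0.02 after quantile normalization. Leaving out WT replicate 4 gave a median of -0.06. Without WT replicate 4 and CCAT2-T replicate 3, 25 of the 31 were lower with a median of -0.11. The part of WT replicate 4 in the levels of these genes was not tested.

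Most genes of mitochondrial respiration, ribosomal proteins, mitosis and DNA replication were lower by small amounts. These sets were bright, with mean levels in WT mice of 9.62, 11.65, 8.80 and 8.35, where the median of all genes tested was 6.03. Of 34 genes of mitochondrial respiration, 31 were lower, with a median of -0.20, and the direction was shared by the narrow arrays (-0.14) and the wide arrays (-0.23). In all 4 numbered pairs 21 of the 34 were lower, against 11.6% of all genes, and 11 were lower at an unadjusted p under 0.05 with the replicate block, against 6.15% of all genes. Sdhb, the iron-sulphur subunit of succinate dehydrogenase, measured 8.96, 9.10, 8.82 and 9.27 in CCAT2-T mice, against 9.34, 9.36, 9.23 and 9.49 in WT mice (-0.32, SE 0.13). Atp5b, the catalytic beta chain of ATP synthase, measured 10.74, 11.04, 10.31 and 11.28 in CCAT2-T mice, against 11.15, 11.13, 11.24 and 11.44 in WT mice (-0.40, SE 0.17). The groups overlapped for both, since CCAT2-T replicate 4 exceeded 1 WT mouse for Sdhb and 3 WT mice for Atp5b. Uqcrc2, a core subunit of complex III, and Atp5o, a stalk subunit of ATP synthase, differed by -0.31 (SE 0.14) and -0.41 (SE 0.21). Without CCAT2-T replicate 3 the differences were -0.23 for Atp5b and -0.18 for Atp5o. Subunits of cytochrome c oxidase ran from Cox6c at -0.27 (SE 0.18) over Cox5b at -0.02 (SE 0.11) to Cox7c at 0.17 (SE 0.27). Medians without 1 mouse ran from -0.26 (without WT replicate 1) to -0.07 (without WT replicate 4), and without both extreme mice 30 of 34 were lower with a median of -0.08.

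Of 29 measured genes of cytosolic ribosomal proteins 25 were lower, with a median of -0.10, -0.10 in the narrow and -0.08 in the wide arrays. Rpl27 and Rpl19, subunits of the large ribosomal particle, each differed by -0.21 (SE 0.10), although both other probesets of Rpl27 were higher. Genes of mitosis were lower for 30 of 34, with a median of -0.20, and 10 of them were lower at an unadjusted p under 0.05 with the block, against 6.15% of all genes. Kif20a, a kinesin of cell division, measured 6.91, 7.31, 6.89 and 7.74 in CCAT2-T mice, against 7.39, 7.42, 7.82 and 8.18 in WT mice (-0.49, SE 0.25). Nusap1, a spindle protein, was the member without overlap, at 9.84, 9.91, 9.21 and 9.81 in CCAT2-T mice, against 9.98, 9.92, 9.93 and 10.19 in WT mice (-0.32, and -0.16 without CCAT2-T replicate 3). Mki67 and Plk1, markers of cycling cells, differed by 0.04 (SE 0.14) and 0.08 (SE 0.23), and Foxm1, a transcription factor of the same phase, by 0.21 (SE 0.13). DNA replication genes were lower for 26 of 33 (median -0.16), with the clamp loader subunit Rfc3 at -0.64 (SE 0.21) and Gins2 of the replicative helicase at -0.36 (SE 0.18). Without WT replicate 4 the medians were -0.05 for ribosomal proteins, -0.08 for mitosis and -5.32e-05 for replication.

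Interferon-induced genes stood on the other side. In the set for the type I interferon response, 33 of 38 members were higher and the median was 0.22, where 50.5% of all genes were higher. Oas2, an antiviral oligoadenylate synthetase, measured 6.82, 6.76, 8.29 and 6.68 in CCAT2-T mice, against 6.20, 6.79, 6.23 and 5.49 in WT mice (0.96, SE 0.38). Usp18, the protease that removes Isg15 from proteins, measured 6.33, 6.57, 7.16 and 6.19 in CCAT2-T mice, against 5.42, 6.64, 6.24 and 5.30 in WT mice (0.66, SE 0.39). Without both extreme mice Oas2 differed by 0.35 and Usp18 by 0.26. The groups overlapped for each of the 38, and 3 were higher in all 4 pairs, against 9.4% of all genes. The median was -0.05 within the narrow arrays and 0.43 within the wide arrays, and it was 0.03 without CCAT2-T replicate 3 and WT replicate 4. Leaving out 1 mouse gave 0.13 (without WT replicate 4) to 0.37 (without WT replicate 2). The interferon-induced GTPases showed no common direction, with 4 of 8 higher and a median of 0.01 that turned to -0.01 after median centring.

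Enzymes that edit RNA or DNA were measured for 10 of 13 entries, 7 higher and 3 lower. Adar, the adenosine deaminase of double-stranded RNA, which interferon also induces, measured 6.85, 6.75, 7.34 and 7.14 in CCAT2-T mice, against 6.72, 6.82, 6.79 and 6.57 in WT mice (0.29, SE 0.15). The difference was 0.03 within the narrow arrays and 0.56 within the wide arrays, and 0.19 without CCAT2-T replicate 3. Adat2, a subunit of the adenosine deaminase of transfer RNA, measured 4.95, 5.35, 4.75 and 5.43 in CCAT2-T mice, against 5.32, 5.52, 5.63 and 5.79 in WT mice (-0.45, SE 0.18). It was lower in each of the 4 pairs. The plot of list medians sets these sets beside the others.

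**Figure D3:**
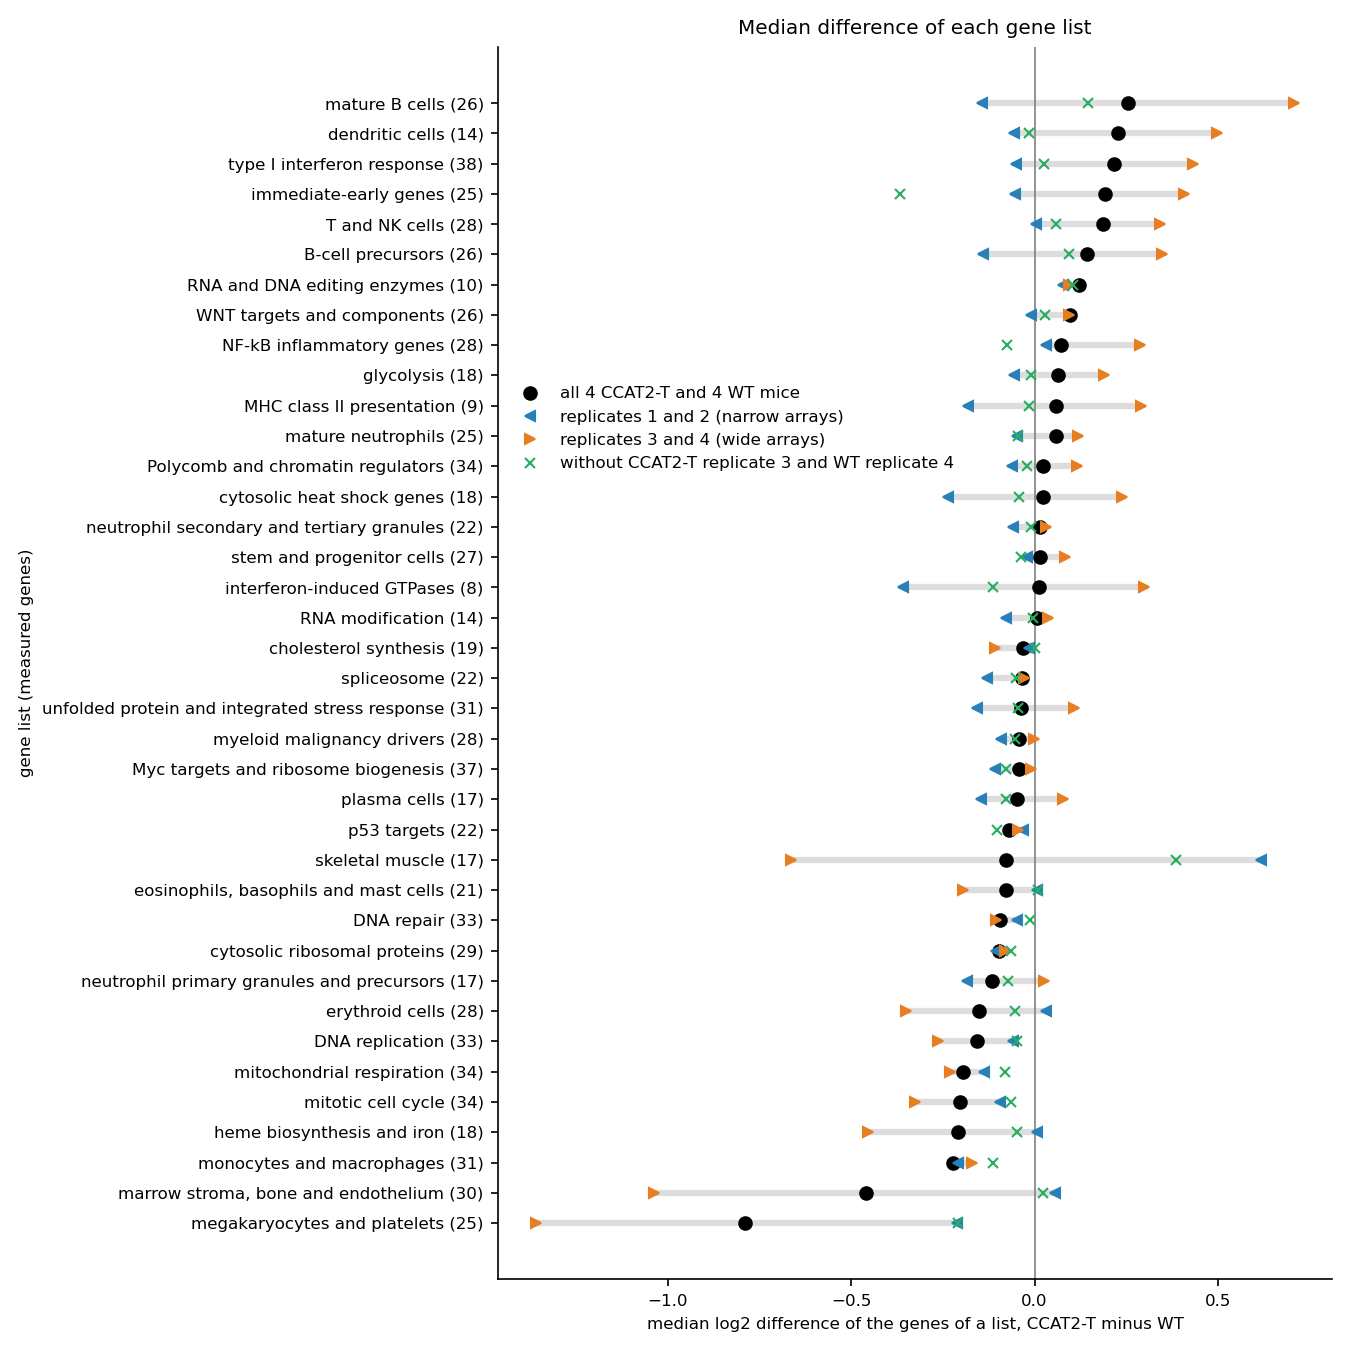
Median log2 difference, CCAT2-T minus WT, of the measured genes of each list (rows, number of genes in brackets) over all 8 mice (black), within narrow arrays (blue), within wide arrays (orange) and without the 2 extreme mice (green). Megakaryocyte genes, at -0.79, lie left of every other list; the narrow and wide medians of B cell, interferon and stromal genes lie on opposite sides of 0.

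Lymphocyte genes were higher over all mice but not within the narrow arrays. Of 26 genes of mature B cells 22 were higher, with a median of 0.25. Cd79a, the signalling chain of the B cell receptor, measured 8.93, 8.49, 7.32 and 8.31 in CCAT2-T mice, against 8.99, 9.03, 6.15 and 5.42 in WT mice (0.87, SE 0.88). The wide WT arrays were the low ones, and without WT replicate 4 the difference was 0.21. The median of the B cell genes was -0.14 within the narrow arrays, 0.71 within the wide arrays, -0.05 without WT replicate 4 and 0.56 without WT replicate 1. B cell precursor genes were higher for 21 of 26 (median 0.14, but -0.0022 without WT replicate 4, 0.31 without WT replicate 1 and -0.14 within the narrow arrays), with Vpreb1 of the surrogate light chain at 0.10 (SE 0.99). Genes of antigen presentation on MHC class II were higher for 7 of 9 (median 0.06, and -0.13 without WT replicate 4).

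T and NK cell genes were higher for 24 of 28 with a median of 0.19, and 7 were higher in all 4 pairs, where 9.4% of all genes were. Eomes, a transcription factor of NK and cytotoxic T cells, had one of the largest differences shared by both array sets, 0.47 in the narrow and 0.63 in the wide arrays. It measured 5.96, 5.61, 6.12 and 5.30 in CCAT2-T mice, against 5.57, 5.06, 5.29 and 4.89 in WT mice (0.55, SE 0.24). Il2rb, the receptor chain for interleukins 2 and 15, measured 6.17, 6.17, 6.93 and 6.25 in CCAT2-T mice, against 6.22, 5.74, 5.99 and 5.09 in WT mice (0.62, SE 0.29), and without both extreme mice the difference was 0.21. Ncr1, an activating receptor of NK cells, did not overlap: it measured 5.26, 5.40, 5.31 and 5.34 in CCAT2-T mice, against 5.19, 5.07, 5.08 and 5.06 in WT mice. The adaptor Lat and the granule protein Nkg7 each differed by -0.31 and were lower in all 4 pairs, and Cd3d of the T cell receptor complex differed by 0.01 (SE 0.28). The list median was 0.0034 within the narrow arrays and 0.34 within the wide arrays, and 0.06 without WT replicate 4. Dendritic cell genes were higher for 13 of 14 (median 0.23), with a median of -0.06 in the narrow arrays and 0.09 without WT replicate 4.

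**Figure D4:**
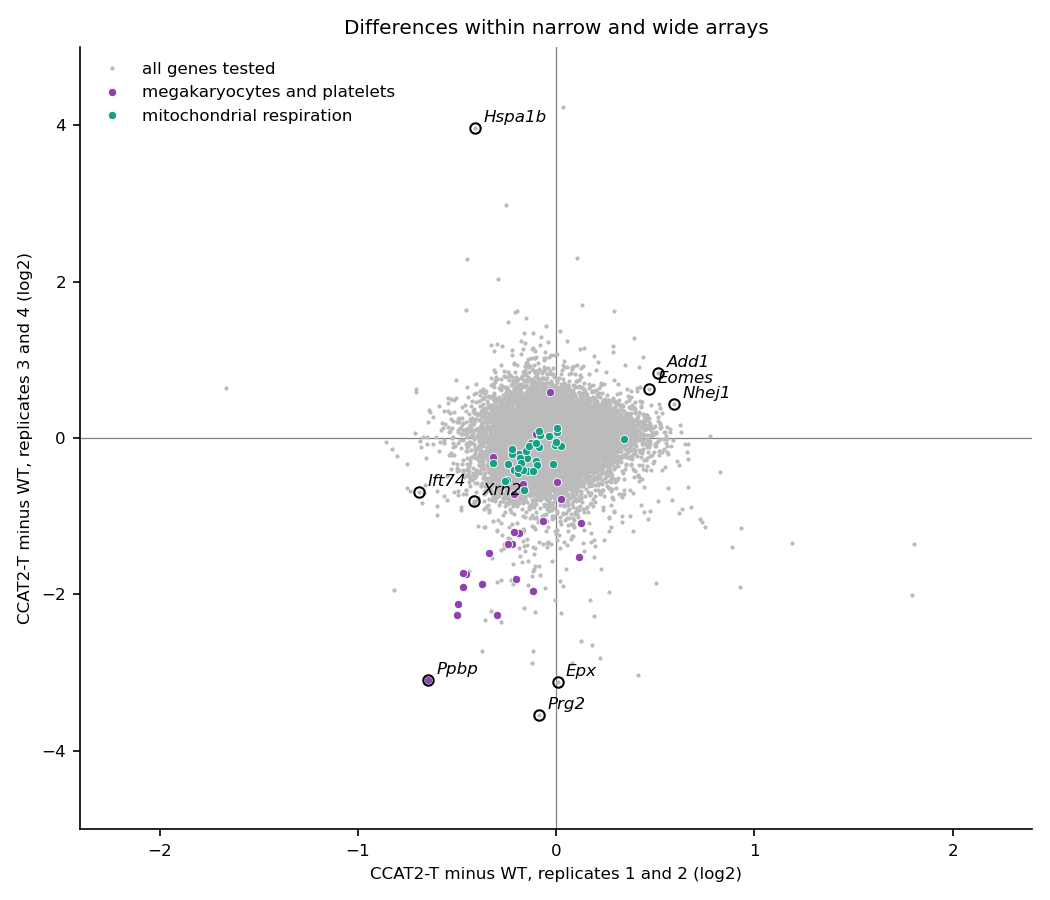
Difference CCAT2-T minus WT of 14505 genes (grey points) within replicates 1 and 2 (narrow arrays, horizontal axis, log2) and within replicates 3 and 4 (wide arrays, vertical axis, log2), with megakaryocyte genes in purple, mitochondrial respiration genes in green and 9 named genes circled. Most megakaryocyte genes lie below and left of 0 and spread further down the vertical axis; Prg2 and Epx lie near 0 on the horizontal axis.

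Genes of the granulocyte and red cell lineages, which fill most of the marrow, had medians between -0.21 and 0.06. S100a8, a neutrophil calcium-binding protein among the brightest genes of the array, measured 13.79, 13.78, 13.86 and 13.83 in CCAT2-T mice, against 13.78, 13.77, 13.76 and 13.77 in WT mice. Mpo, the peroxidase of primary granules, differed by -0.02 (SE 0.26), Elane, neutrophil elastase, by -0.12 (SE 0.38) and Ltf, lactoferrin of secondary granules, by 0.03 (SE 0.22). The sets of secondary granule genes and of mature neutrophils had medians of 0.01, which turned to -0.01 after median centring, and 0.06, and primary granule genes were lower for 12 of 17 (median -0.12). The primary granule median was 0.03 within the wide arrays and 0.05 without CCAT2-T replicate 1, and that of mature neutrophils ran from -0.03 (without WT replicate 1) to 0.24 (without WT replicate 3). Red cell genes were lower for 24 of 28 with a median of -0.15, and genes of heme synthesis and iron for 14 of 18 with a median of -0.21. Car1, a carbonic anhydrase of red cell precursors, measured 9.85, 10.07, 9.65 and 10.37 in CCAT2-T mice, against 10.25, 10.13, 10.56 and 11.29 in WT mice (-0.57, SE 0.39, and -0.22 without both extreme mice). Klf1, a master regulator of the lineage, differed by -0.15 (SE 0.27), with only CCAT2-T replicate 3, at 9.67, outside the range of the other 7 mice (10.22 to 10.39). Within the wide arrays the medians were -0.35 for red cell genes (25 of 28 lower) and -0.45 for heme genes (15 of 18 lower), within the narrow arrays they were 0.03 and 0.0063, and without CCAT2-T replicate 3 they were -0.08 and -0.10. Stem and progenitor genes had a median of 0.01, with Kit at -0.27 (SE 0.28) and Cd34 at 0.20 (SE 0.42), and the sign of that median turned under median centring (-0.01).

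Genes that answer to handling and stress varied widely between mice of a group. The mean level of the 25 immediate-early genes was 6.57, 6.51, 8.94 and 7.73 in CCAT2-T replicates 1 to 4, against 6.60, 6.60, 8.93 and 6.31 in WT replicates 1 to 4, so that replicate 3 was the highest in both groups. The median difference of these genes was 0.19, and it ran from -0.23 (without CCAT2-T replicate 3) to 0.69 (without WT replicate 3). The heat shock gene Hspa1b measured 4.60, 4.03, 10.75 and 8.04 in CCAT2-T mice, against 4.86, 4.58, 6.83 and 4.04 in WT mice (1.78, SE 1.20). It differed by 0.48 without CCAT2-T replicate 3 and by -0.41 within the narrow arrays. Of the 18 heat shock genes 9 were higher and 9 lower. NF-kB inflammatory genes were higher for 19 of 28 (median 0.07, and -0.08 without both extreme mice), with the chemokine Cxcl10 at 0.53 (SE 0.24, and 0.31 without CCAT2-T replicate 3) and higher in all 4 pairs, and Nfkb2, the p100 precursor of the noncanonical pathway, at 0.35 (SE 0.18) without overlap. Genes of the unfolded protein response had a median of -0.04, which turned to 0.03 after quantile normalization. The plot of list levels by mouse shows the spread within groups.

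**Figure D5:**
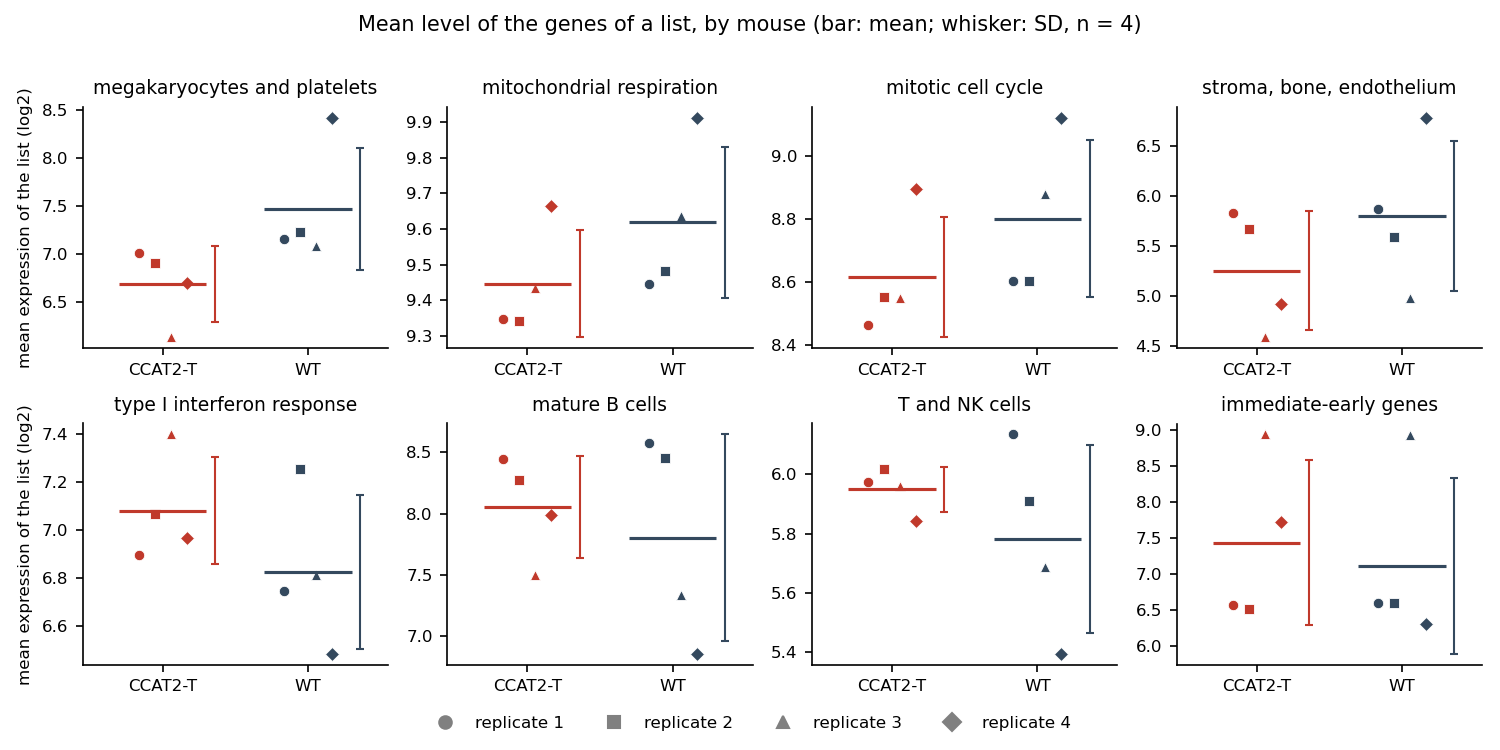
Mean log2 level of the measured genes of 8 lists in each of the 4 CCAT2-T (red) and 4 WT (dark) mice, with symbols for replicates 1 to 4, bars for group means and whiskers for SD; vertical axes differ in range. The groups do not overlap for megakaryocyte and platelet genes, where the CCAT2-T mice reach at most 7.02 and the WT mice at least 7.08; in the other 7 panels they overlap.

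Genes tied to CCAT2 in earlier work on human cells showed no difference beyond the spread between mice. Myc measured 7.31, 7.51, 8.16 and 8.17 in CCAT2-T mice, against 7.56, 7.70, 8.32 and 7.68 in WT mice, a difference of -0.03 (SE 0.23) that turned to 0.04 after quantile normalization. Pvt1, the noncoding neighbour of Myc, differed by 0.11 (SE 0.27), with 1 of its 4 other probesets in the same direction. Ezh2, the methyltransferase of Polycomb complex 2, measured 9.02, 8.99, 9.39 and 9.37 in CCAT2-T mice, against 8.99, 8.99, 9.27 and 9.32 in WT mice (0.05, SE 0.14). WNT targets and components were higher for 19 of 26 (median 0.10, 0.01 without WT replicate 4 and -0.01 within the narrow arrays), with Nkd1, a feedback inhibitor of the pathway, at 0.28 (SE 0.16) and higher in all 4 pairs. Myc targets and genes of ribosome biogenesis were lower for 22 of 37 with a median of -0.04, which turned to 0.02 after quantile normalization.

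Chromatin, RNA and repair genes had medians near that of all genes. Polycomb and chromatin regulators were higher for 19 of 34 (median 0.02, and -0.0044 after median centring), and Mtf2, a subunit that guides Polycomb complex 2 to DNA, did not overlap, at 7.68, 7.75, 7.16 and 7.78 in CCAT2-T mice, against 7.95, 7.90, 7.79 and 8.17 in WT mice (-0.36, SE 0.15, and -0.22 without CCAT2-T replicate 3). Spliceosome genes had a median of -0.03 (0.03 after quantile normalization), with the partners U2af2 and U2af1 at 0.29 (SE 0.13, and 0.18 without CCAT2-T replicate 3) and -0.32 (SE 0.18). DNA repair genes were lower for 22 of 33 (median -0.09, and -0.0019 without WT replicate 4) and p53 targets for 15 of 22 (median -0.07), with the repair factor Ddb2 at -0.31 (SE 0.16) and Phlda3, an inhibitor of Akt signalling, at 0.27 (SE 0.14). Genes of glycolysis were higher for 11 of 18 with a median of 0.06 (-0.03 without WT replicate 1), cholesterol synthesis -0.03 (0.02 after quantile normalization), myeloid malignancy drivers -0.04 (0.03 after quantile normalization), RNA modification 0.0064 (-0.02 after median centring) and plasma cells -0.05 (0.02 without WT replicate 4). The replication-dependent histones were measured for 3 of 26 entries, which were 1 higher and 2 lower.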

How the data were processed

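Bone marrow RNA of 18 mice was measured on Affymetrix arrays with 45101 probesets. The authors deposited log2 expression values made with RMA, per the submitters' processing notes, and no source used here gives the version or the probe definitions. Values ran from 1.56 to 14.2, no pair of arrays was identical, and correlations among the 8 arrays of CCAT2-T and WT mice were 0.968 to 0.996. Arrays give no read depth, so their number limits the precision.

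GEO's platform annotation pairs 34958 probesets with 1 gene symbol, and these were used, 932 with several and 9211 with none. Each of the 18194 genes was represented by its brightest probeset, and 14505 genes with a mean of at least 3.30, the 30th percentile over probesets, were tested. All 18 arrays in 4 groups entered a two-sided limma fit (version 3.58.1, R 4.3.3, functions lmFit and eBayes, the prior variance following mean level), with Benjamini-Hochberg adjustment over all genes kept and a threshold of 0.05. Errors are SE of the fit. The fit was tested on simulated data with the same groups, with 200 of 14505 genes changed. The simulated noise was normal and independent between genes and arrays.

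Replicate numbers come from the titles, and nothing in the labels says that they mark a shared litter or day. The deviations of same-numbered CCAT2-T and WT mice from their group means correlated at 0.51, 0.35, 0.57 and 0.19. The number was therefore also fitted as a block, on the 8 CCAT2-T and WT arrays alone. Of the 8 mice, 5 correlated best with their own number. Same-numbered mice also share the array set, so these values cannot tell a pairing of mice from array spread.

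Lists of marker and pathway genes (40 lists, 910 different genes) are described by counts and medians, with no test. The members and lists were chosen with earlier results of these data known. A list level is the mean of its measured genes. Genes were picked for naming if they had the 10 smallest p in a direction or the 10 largest differences in a direction among genes without overlap. The 5 largest differences in a direction shared by narrow and wide arrays were picked too. Not every gene picked is described. Ceacam9, Rasgrf1, Tshr and Ddc, for example, were among the higher genes of smallest p and are left out of the Results. Each list adds up to 4 members of smallest p, and fewer for most lists. Preset lineage markers, sex-linked genes, Myc, Pvt1, Ezh2 and Adar are also named. Predicted genes and receptor segments are not named. Other members of a list are given where a list is described and were chosen after their values were seen. Alternatives covered normalization, filters, probeset choice, covariates, blocks, array weights and leaving out each mouse. Promoter sequences are from RefSeq (GRCm38.p6).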

Additional observations from a re-analysis of the deposited data

Results flagged for a closer look

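Groups of 4 mice were made of the levels of the 151 genes picked for naming, not all of them described above, and of the 40 lists. Among the 382 groups, 27 held a mouse whose gap to the next one exceeded Dixon's critical share of the range. Chance gives this in about 1 in 20 groups. CCAT2-T replicate 3 was that mouse in 13 groups, WT replicate 4 in 10, WT replicate 3 in 3 and CCAT2-T replicate 1 in 1. CCAT2-T replicate 3 was the highest of its group for Xist (12.0), Oas2 (8.29), Nfkb2 (7.15), Il2rb (6.93) and Hdac9 (5.63). It was the lowest for Klf1 (9.67), Nusap1 (9.21), Mtf2 (7.16), Ppm1d (7.14), Trdmt1 (5.50), Gp5 (5.04), Eif2s3y (2.14) and the level of sex-linked genes (4.83).

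WT replicate 4 was the highest of its group for the level of megakaryocyte and platelet genes (8.41), Serpinb1a (10.97), Ctsl (9.03), Itga2b (8.50), Adgre1 (8.32), Gp5 (8.12), Vwf (7.70), Ang (6.81) and Gpr34 (5.12), and the lowest for Ltb (8.33). WT replicate 3 was the highest for the level of immediate-early genes (8.93) and for Hspa1a (4.85) and the lowest for Ift74 (3.92). CCAT2-T replicate 1 was the lowest for the level of plasma cell genes (7.01).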

How the results depend on the processing

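The number of genes at an adjusted p under 0.05 stayed at 0 in each of the 26 alternatives run, with smallest adjusted p between 0.255 (array weights) and 1 (minimum fold of 1.5). The numbers at an unadjusted p under 0.05, 247 higher and 204 lower, did change: 529 and 433 with array weights, 577 and 433 with the array spread as a block, 494 and 892 with the replicate block, 599 and 709 over every probeset, 417 and 945 in narrow arrays, 694 and 487 in wide arrays, and 0 and 0 with a minimum fold of 1.5. The higher number was 122 with a filter at the 50th percentile, 412 with no filter on dim genes and 119 with the CCAT2-T and WT arrays alone. The lower number was 86 with Xist minus the Y-linked genes and 126 with the stroma score as a covariate. Leaving out 1 mouse gave 90 to 480 higher and 39 to 685 lower, both lowest without WT replicate 4 and both highest without CCAT2-T replicate 4. Leaving out CCAT2-T replicate 3 and WT replicate 4 together, an alternative chosen after seeing the data, gave 131 higher and 19 lower. The replicate block changed no call.

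Medians of 40 lists over 25 alternatives gave 1000 values. Of these, 966 moved by less than the spread between mice and 134 had another sign than over all 8 mice. Alternatives that changed only the test, kept dim genes, dropped the other genotypes or fitted a balanced block could not move a median. Part of the 966 was therefore fixed in advance. The spread was wide for some lists: at 0.68 for stromal genes, a shift from -0.46 to 0.06 in narrow arrays counted as not moved. The sign changed for 20 of the 40 lists in narrow arrays, for 17 without CCAT2-T replicate 3 and WT replicate 4, for 11 with array weights and for 11 without WT replicate 4. With array weights the medians were -0.27 for interferon-induced GTPases, -0.000156 for red cells, -0.056 for heme and -0.053 for stem cells. In narrow arrays they were -0.36 for interferon-induced GTPases, -0.056 for dendritic cells, 0.030 for red cells, 0.0063 for heme, -0.21 for megakaryocytes, 0.62 for skeletal muscle and -0.010 for WNT. In wide arrays they were 0.30 for interferon-induced GTPases, 0.50 for dendritic cells, -0.35 for red cells, -0.45 for heme, -1.36 for megakaryocytes and 0.083 for stem cells. Stem cells had 0.083 after quantile normalization, and megakaryocytes -0.13 with the stroma score. Without 1 mouse or without both extreme mice, dendritic cells ran from -0.016 to 0.32, heme from -0.26 to -0.047, megakaryocytes from -0.91 to -0.21 and stem cells from -0.036 to 0.042. Without 1 mouse, editing enzymes ran from 0.058 to 0.16 and histones from -0.36 to 0.13. Named genes turned sign beyond the spread in 17 cases. With the mean of probesets these were Tyw1 (-0.058), Ell2 (0.024) and Zbtb46 (-0.10). In narrow arrays they were Slfn8 (-0.036), Dnajc7 (-0.014), Tcf4 (-0.18), Smarca4 (-0.17), Gata3 (-0.0047), Bst2 (-0.20), Epx (0.0074), Eno3 (0.21), Hyou1 (-0.078), Slc16a3 (-0.019), Dhcr7 (-0.014) and U2af2 (-0.018). With the stroma score they were Itga2b (0.016) and Ltf (-0.11). The cause was not tested.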
